A study of Mus musculus with 45 samples.

Results

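Sidestream smoke, which drifts from a cigarette between puffs and makes up most of second-hand smoke, was set against filtered air in the hearts of mice on a regular diet. The comparison used the 15 arrays titled RW-SS or RW-SC of the 45 arrays in the series, 7 with sidestream smoke (RW-SS) and 8 with air (RW-SC), with 1 heart per array. All of these mice were male C57BL/6 mice of regular weight (RW) on a standard diet with about 5 kcal% fat. From 15 weeks of age they breathed either sidestream smoke or filtered air (sham control, SC) by the nose only, 5 h a day. There were 8 exposures within 2 weeks, on 5 days, then after a pause of 2 days on 3 more, and the hearts were taken on the day after the last. The other arrays held 8 hearts of RW mice in mainstream smoke (RW-MS), the smoke a smoker draws in. The rest came from diet-induced obese (DIO) mice fed 60 kcal% fat from 6 weeks of age: 8 in air (DIO-SC), 8 in sidestream smoke (DIO-SS) and 6 in mainstream smoke (DIO-MS). The growth protocol mentions an LPS study, whereas titles and treatment name cigarette smoke, and the titles were followed. The labels call the arrays of a group biological replicates and do not say which mice shared a cage or an exposure run, so the p-values measure the spread between these hearts.

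Sidestream smoke burns cooler than the smoke of a puff and carries carbon monoxide, aldehydes and polycyclic aromatic compounds. These are known to act on cells through a few sensors. NRF2 turns on genes for glutathione synthesis and detoxification, the aryl hydrocarbon receptor turns on cytochrome P450 genes, carbon monoxide binds to heme iron, and a stressed animal releases glucocorticoids. The heart draws on mitochondria for nearly all of its energy, keeps its own circadian clock and needs iron for heme and iron-sulphur proteins.

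Values are levels on a log2 scale, on which a difference of 1 is a 2-fold difference, and errors of differences are standard errors (SE) of limma's fit. A gene is said to rise, fall or change where its adjusted p was under 0.05 over all 9295 genes tested. In RW-SS against RW-SC hearts 2288 genes (24.6%) passed, of which 1083 (11.7%) were higher and 1205 (13.0%) lower. The counts of gene groups below are to be read beside these shares. Most of these differences were small: the median size among called genes was 0.20, and 1690 of them (73.9%) differed by under 1.2-fold. At 1.5-fold or more there were 14 higher (0.151%) and 29 lower genes (0.312%). All hearts of one group lay beyond all hearts of the other for 483 genes (5.2%), 180 higher (1.94%) and 303 lower (3.26%). The largest falls among called genes were those of Tfrc, the transferrin receptor, and of the clock genes Nr1d1 and Dbp, and the largest rises those of Tent5c, Alas2 and Ddit4.

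As deposited, the direction of the calls went with the signal level of the gene. The genes tested were divided into 4 classes of about equal size by mean level. In the dimmest class (mean 4.90 to 6.24) 341 rose and 78 fell, while in the brightest (8.78 to 14.61) 239 rose and 486 fell. In DIO mice the same smoke gave the opposite order, with 190 rises and 361 falls in the dimmest class and 668 and 117 in the brightest. The median change of a class stayed small, from 0.06 for the dimmest to -0.02 for the brightest in RW mice. This pattern was nearly gone after a further quantile normalization of the arrays, with 182 rises and 144 falls in the dimmest and 346 and 342 in the brightest class in RW mice, and 212 and 229 and then 267 and 228 in DIO mice. The part of signal level in the counts of gene groups was not tested.

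**Figure D1:**
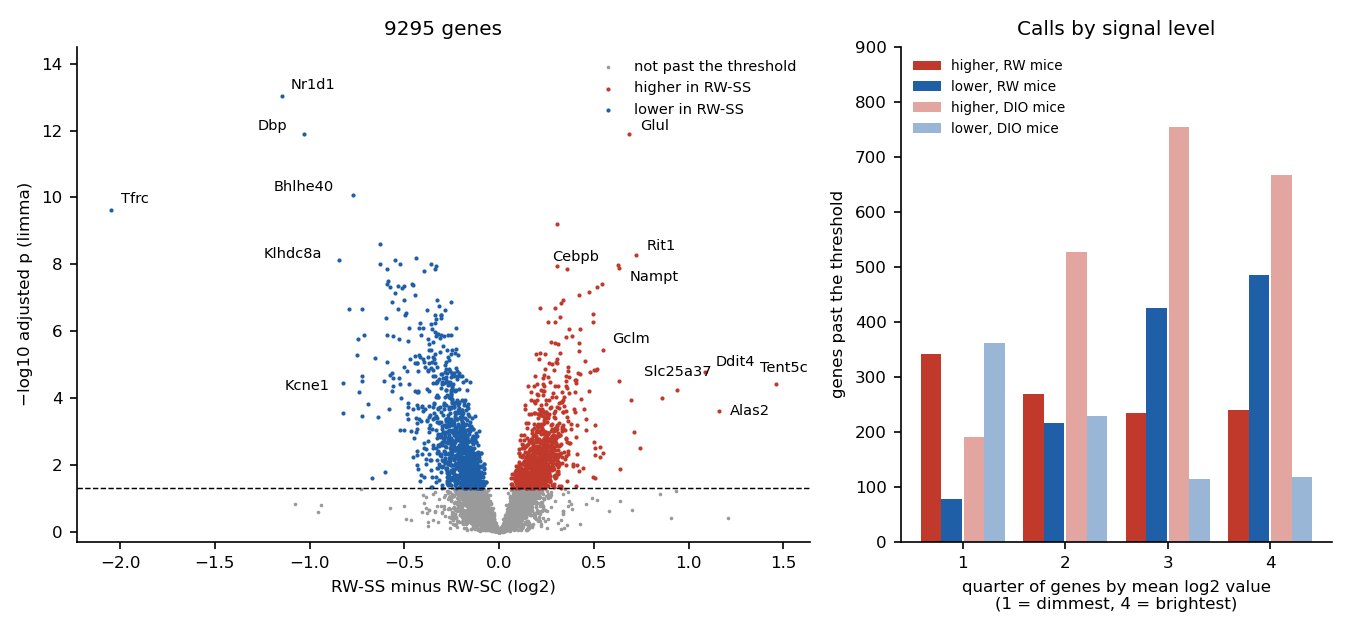
Left, the change of each of 9295 genes in RW-SS against RW-SC hearts (x axis, log2) against its evidence (y axis, −log10 of limma's adjusted p), with the threshold of 0.05 dashed, where Tfrc lies farthest to the left at -2.05 and Tent5c farthest to the right of the called genes at 1.46. Right, called genes by class of signal level (bars count genes, solid for RW and pale for DIO mice), where RW rises outnumber falls at 341 against 78 in the dimmest class and falls outnumber rises at 486 against 239 in the brightest.

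The samples were heart throughout. All 10 markers of ventricular muscle were bright in all 15 hearts (Myh6, the main heart myosin, at 14.37 to 14.49), and none of the 10 changed, nor did any of 11 markers of atrial muscle, 11 of fibroblasts or 10 of smooth muscle and pericytes. Fat and B cell markers varied widely within each group. Adipoq of white fat ran from 6.09 to 11.21 in RW-SC and from 5.08 to 11.24 in RW-SS hearts. Ucp1 of brown fat ran from 4.36 to 10.53 and from 4.49 to 10.88, and Ighm of B cells from 6.77 to 12.01 and from 6.79 to 9.19. None of 6 white fat, 5 brown fat or 5 B cell markers tested changed, and their part in the results was not tested. The heart RW-SS 7 stood apart in RNA quality: its Gapdh 3′ probe set exceeded the 5′ one by 0.94, against 0.22 to 0.32 in the other 14 hearts, and the same difference for Actb was 1.65 against 1.07 to 1.33. RW-SS 2 and RW-SS 4 stood apart in blood cell markers, as given with the red cell genes below. The hearts RW-SC 7 and RW-SC 8 stood apart in airway transcripts: Scgb1a1, a secreted protein of the airway lining that was under the filter on low values, read 11.56 and 10.95 there and 3.91 at most in the other 13 hearts. Without these 2 controls 2101 genes passed, without RW-SS 2 and RW-SS 4 1626 (698 higher and 928 lower) and without RW-SS 7 2299.

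Iron and heme genes held the largest fall of the comparison. Tfrc, the receptor by which cells take up transferrin-bound iron, lay at 9.99, 10.16 and 10.56 in RW-SC hearts (lowest, median and highest) and at 7.30, 8.14 and 9.05 in RW-SS hearts. Every smoke-exposed heart was below every control, with RW-SS 2 lowest and RW-SS 1 highest. It fell by 2.05 ± 0.19 log2 units, or 4.14-fold (adjusted p = 2.3e-10, 7 of 7 hearts). All 3 probe sets of Tfrc fell, but by unequal amounts: the brightest, which stands for the gene here, gave -2.05 and the dimmer ones -0.91 and -0.18. In DIO mice Tfrc fell by 0.69 ± 0.19, and the difference between the diets passed its own test (interaction 1.36 ± 0.27, adjusted p = 0.000424).

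Of 13 iron genes tested 4 rose and 2 fell, Tfrc among them. Slc40a1, the ferroportin that lets iron out of cells, rose from a median of 8.33 to 8.75 (0.43 ± 0.08, adjusted p = 0.000109), with overlapping groups. Slc25a37, the mitoferrin that brings iron into mitochondria of blood-forming cells, rose by 0.94 ± 0.17 (adjusted p = 5.85e-05), and its widely expressed relative Slc25a28 by 0.16 ± 0.05 (adjusted p = 0.0121). Ireb2, an iron sensor that steadies Tfrc mRNA when iron is low, rose by 0.12 ± 0.04 (adjusted p = 0.0167). Iscu, the scaffold on which iron-sulphur clusters form, fell by 0.13 ± 0.04 (adjusted p = 0.0128) and was lowest in RW-SS 7. The ferritin heavy chain Fth1 differed by -0.04 ± 0.02 (adjusted p = 0.241).

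The first step of heme synthesis split by isoform. Alas1, the general form of the rate-limiting enzyme, lay between 10.03 and 10.41 in controls (median 10.19) and between 8.99 and 9.81 in smoke (median 9.53), without overlap. It fell by 0.73 ± 0.09 (adjusted p = 2.14e-07), and by 0.55 without RW-SS 2 and RW-SS 4, its 2 lowest hearts (adjusted p = 6.72e-06). Alas2, the red cell form, lay between 7.41 and 7.80 in controls (median 7.72) and between 8.23 and 10.18 in smoke (median 8.50), again without overlap. It rose by 1.16 ± 0.23 (adjusted p = 0.000244), and by 0.73 without RW-SS 2 and RW-SS 4, its 2 highest hearts (adjusted p = 0.0101). Of 13 genes of heme synthesis and breakdown tested 4 rose and 4 fell, without these 2 hearts 2 rose and 3 fell, and after a further quantile normalization 2 fell. Among the falls was Cpox, a late enzyme of synthesis (by 0.35 ± 0.06, adjusted p = 1.44e-05, 7 of 7 hearts). A dimmer probe set of Cpox gave 0.01 (adjusted p = 0.921). Hmox1, the inducible heme oxygenase, went from 6.58 to 7.22 in the median and rose by 0.63 ± 0.11 (adjusted p = 3.17e-05), with RW-SS 7 highest at 7.74 and RW-SS 1 and RW-SS 6 within the range of the controls. Bach1, the heme-binding repressor of Hmox1, rose by 0.22 ± 0.06 (adjusted p = 0.00729), a call that was lost without RW-SS 2 and RW-SS 4 (adjusted p = 0.061). A second, dimmer probe set of Bach1 gave -0.45 (adjusted p = 0.000773), so its direction was not settled.

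Several of the largest rises were genes of red cells and their precursors, and they were highest in the same hearts. Red cell markers, averaged over the 4 of 14 that were tested (Alas2, Bpgm, Fech and Slc4a1), lay between -0.12 and 0.11 of the control mean in RW-SC hearts, at 1.21 in RW-SS 2, at 1.60 in RW-SS 4 and between 0.21 and 0.58 in the other 5. Platelet markers (6 tested of 7) gave 0.85 and 0.86 in those 2 hearts against -0.06 to 0.32 in the other 5, and the 2 neutrophil markers tested gave 1.05 and 0.69 against -0.05 to 0.14. Hba-a1, an alpha globin, was under the filter and read 3.66 to 4.07 in RW-SS against 3.51 to 3.73 in RW-SC hearts. The markers Epb42 and Rhag were also under it. Epb42 read 4.15 to 4.58 in RW-SS against 4.04 to 4.37 in RW-SC hearts, and Rhag 2.61 to 2.77 against 2.68 to 3.11. At such low values these markers show little about red cells. In whole tissue more cells of a type and more RNA per cell cannot be told apart.

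Tent5c, a poly(A) polymerase prominent in red cell precursors, had the largest rise of all. Its lowest, median and highest values were 6.59, 6.81 and 7.17 in controls and 7.39, 7.98 and 9.70 in smoke. The groups did not overlap, and RW-SS 4 and RW-SS 2 were highest. The rise was 1.46 ± 0.26 (2.76-fold, adjusted p = 3.94e-05), and 0.99 without those 2 hearts (adjusted p = 0.00184). Without them Slc25a37 rose by 0.59 (adjusted p = 0.00173), Ube2l6, a ubiquitin-conjugating enzyme, by 0.55 in place of 0.86 (adjusted p = 0.00323), and Bpgm, which makes the 2,3-bisphosphoglycerate of red cells, by 0.35 in place of 0.71 (adjusted p = 0.0358). Slc4a1, the band 3 anion exchanger of the red cell membrane, rose by 0.55 ± 0.14 (adjusted p = 0.00432) and no longer passed without the 2 hearts (0.26, adjusted p = 0.108). The same held for Fech, the last enzyme of heme synthesis (0.18 ± 0.06, then 0.05 with adjusted p = 0.401), for Isg20, an RNA exonuclease (0.64 ± 0.19, then 0.26 with adjusted p = 0.288), and for the ubiquitin ligase Mkrn1 (0.54 ± 0.13, then 0.22 with adjusted p = 0.0896). So, of the markers above the filter, 4 of 4 red cell markers rose with all hearts and 2 of 4 without RW-SS 2 and RW-SS 4, and 3 and 1 of 6 platelet markers did.

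**Figure D2:**
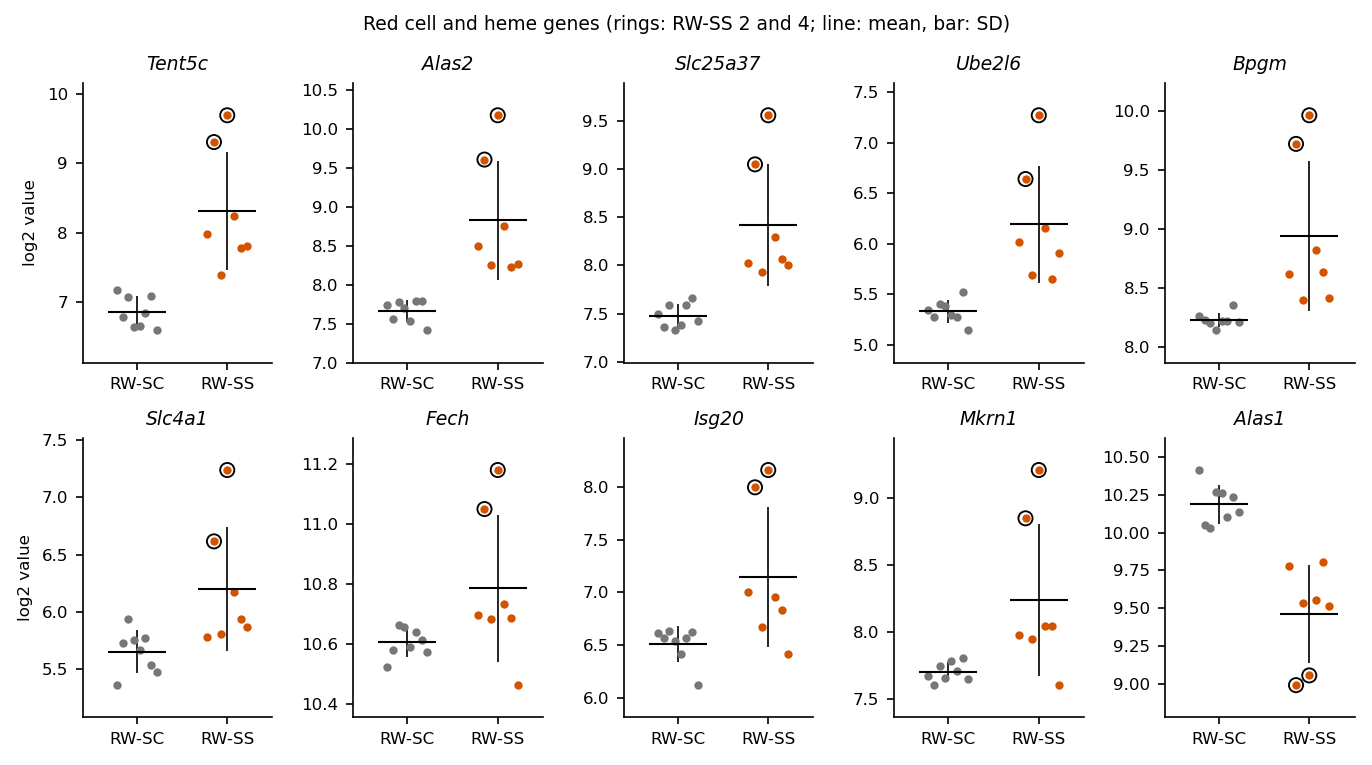
Log2 value of 10 red cell and heme genes in each of 8 RW-SC (grey) and 7 RW-SS (orange) hearts, 1 point per heart, with the mean as a line, the SD as a bar and rings around RW-SS 2 and RW-SS 4. The ringed hearts are the 2 highest for 9 of the genes and the 2 lowest for Alas1, and for Tent5c, Alas2, Slc25a37, Ube2l6 and Bpgm the other 5 RW-SS hearts also lie above every RW-SC heart.

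The clock genes were among the most uniform changes. In the circadian clock CLOCK and BMAL1 (encoded by Arntl) switch on Nr1d1, Per and Cry genes and the output factor Dbp, and their products feed back. Nr1d1, the REV-ERB alpha repressor, lay at 6.92, 7.32 and 7.46 in controls and at 5.94, 6.13 and 6.30 in smoke, so that the highest smoke-exposed heart was below the lowest control. It fell by 1.15 ± 0.08, or 2.21-fold, with the smallest adjusted p of all genes, 9.07e-14. Dbp lay at 10.87, 11.07 and 11.37 in controls and at 9.60, 10.04 and 10.37 in smoke, without overlap, and fell by 1.03 ± 0.08 (2.04-fold, adjusted p = 1.29e-12). Bhlhe40 (DEC1), a repressor of the same E-box sites, fell by 0.77 ± 0.07 from a median of 9.22 to 8.46 (adjusted p = 8.56e-11, groups not overlapping). Nfil3, which binds the sites of Dbp as a repressor, rose by 0.48 ± 0.09 from 6.22 to 6.71 (adjusted p = 6.39e-05, groups not overlapping).

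Of 9 output factors tested 4 fell and 1 rose, and Hlf, a relative of Dbp, was another of the falls (by 0.53 ± 0.09, adjusted p = 2.52e-05, groups overlapping). Tef, the third of that family, differed by -0.01 ± 0.06 (adjusted p = 0.908). A dimmer probe set of Tef gave -0.63 (adjusted p = 4.86e-07), so whether it changed was not settled. With the mean over all probe sets of a gene 6 of the 9 fell and 1 rose. Averaged over the 9, RW-SS hearts lay between -0.47 and -0.26 and RW-SC hearts between -0.11 and 0.12. Of 10 core loop genes tested 1 fell and 2 rose, with 1 rise without RW-SS 7. Clock itself fell by 0.30 ± 0.05 and its groups did not overlap (adjusted p = 1.86e-05). A dimmer probe set of Clock gave -0.02 (adjusted p = 0.805). Cry1 (0.19 ± 0.07, adjusted p = 0.0446) and Rora, an activator of Arntl (0.18 ± 0.06, adjusted p = 0.0139), rose with overlapping groups, and neither passed without RW-SS 2 and RW-SS 4. Cry1 lay close to the threshold and lost its call under 17 of 26 other settings, such as a further quantile normalization (adjusted p = 0.232). Rora did not pass with the mean over its probe sets (adjusted p = 0.187). The period genes Per1 (-0.03), Per2 (-0.11) and Per3 (-0.10) did not pass, nor did Arntl (0.21 ± 0.13, adjusted p = 0.243) or Nr1d2 (-0.12 ± 0.05, adjusted p = 0.0612). A dimmer probe set of Nr1d2 gave -0.61 (adjusted p = 0.000376), and a dimmer probe set of Per3 gave 0.21 (adjusted p = 0.00983). The hour at which each heart was taken is not given in the labels, so group and hour cannot be told apart.

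**Figure D3:**
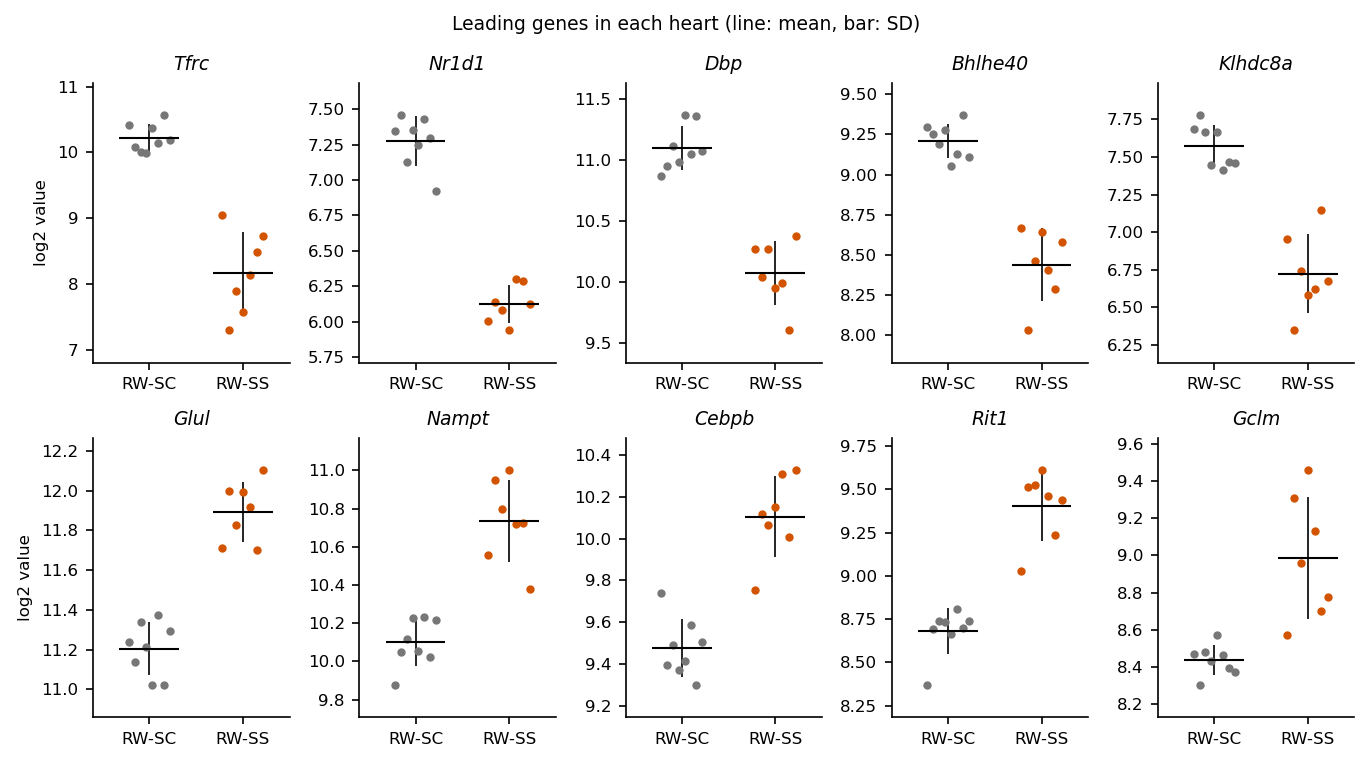
Log2 value of 10 leading genes in each of 8 RW-SC (grey) and 7 RW-SS (orange) hearts, 1 point per heart, with the mean as a line and the SD as a bar. In all 10 panels the groups do not overlap; Tfrc, Nr1d1, Dbp, Bhlhe40 and Klhdc8a lie lower in RW-SS, and Glul, Nampt, Cebpb, Rit1 and Gclm higher.

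Glucocorticoid-responsive genes rose as a group of 12 of 25 tested, with none falling, at a median of 0.27 over the 25 against 0.00 over all genes. Without RW-SS 2 and RW-SS 4 the count was 8, again with none falling. The mean over the list lay between -0.11 and 0.12 in RW-SC hearts, at 0.55 in RW-SS 2, at 0.01 in RW-SS 1 and between 0.19 and 0.38 in the other 5, so RW-SS 1 lay within the controls. Glul, glutamine synthetase, showed the most uniform rise, from 11.02, 11.23 and 11.38 in controls to 11.70, 11.92 and 12.10 in smoke. Its groups did not overlap, and it rose by 0.69 ± 0.05 (1.61-fold, adjusted p = 1.29e-12). Cebpb, a transcription factor of stress and metabolism, rose by 0.63 ± 0.07 from 9.45 to 10.12 in the median (adjusted p = 1.03e-08, groups not overlapping).

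Ddit4 (REDD1), an inhibitor of mTOR signalling, lay at 7.68, 7.96 and 8.26 in controls and at 8.12, 9.13 and 9.60 in smoke. Only RW-SS 1 fell within the control range. The rise was 1.09 ± 0.18 (2.12-fold, adjusted p = 1.7e-05). Tsc22d3 (GILZ), an anti-inflammatory protein and one of the best known targets of the receptor, rose by 0.48 ± 0.08 (adjusted p = 1.66e-05), Errfi1, an inhibitor of EGF receptor signalling, by 0.51 ± 0.11 (adjusted p = 0.00063), and the kinase Sgk1 by 0.41 ± 0.10 (adjusted p = 0.00146). Pdk4, which shuts off pyruvate dehydrogenase, rose by 0.74 ± 0.19 (adjusted p = 0.00313), was highest in RW-SS 2 at 11.98, and did not pass without RW-SS 2 and RW-SS 4 (0.44, adjusted p = 0.055). Angptl4, an inhibitor of lipoprotein lipase, differed by 0.12 ± 0.26 (adjusted p = 0.779). The metal-binding metallothioneins Mt1 (0.28 ± 0.07, adjusted p = 0.00257) and Mt2 (0.50 ± 0.13, adjusted p = 0.00504) rose with overlapping groups, and Mt2 no longer passed without those 2 hearts (0.39, adjusted p = 0.0501). Fkbp5, another widely used marker of the receptor, differed by 0.34 ± 0.14 and did not pass (adjusted p = 0.0753), and neither did Zbtb16 (-0.26), Klf9 (0.06), Per1 or Dusp1 (0.01).

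The glucocorticoid receptor binds pairs of short sites, and the motif GNACA followed after 3 bases by TGTNC was found, on either strand, in the 300 bases from 250 before to 50 after the start of 3 of 21 list genes with a promoter in the RefSeq table, 2 of them among the 12 that rose, and in 0.475% of all 32851 windows. A match is a description only, and most known sites of the receptor lie farther from genes. The 250 bases before the start of Mt1 (GRCm38.p6, chr8:94178839-94179088, + strand, from RefSeq) are shown because they hold such a match on the printed strand, in capitals, whose first base lies 94 bases before the start.
Mt1: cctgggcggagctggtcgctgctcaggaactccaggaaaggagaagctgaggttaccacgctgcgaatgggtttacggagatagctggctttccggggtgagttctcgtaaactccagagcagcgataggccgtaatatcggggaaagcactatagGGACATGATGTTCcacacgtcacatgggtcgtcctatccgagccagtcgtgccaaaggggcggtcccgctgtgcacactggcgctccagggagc

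Of 28 antioxidant genes tested that NRF2 is known to drive 8 rose and 3 fell (1 without RW-SS 2 and RW-SS 4), with a median of 0.05. Gclm, the regulatory subunit of the enzyme that limits glutathione synthesis, had the largest rise. It lay at 8.30, 8.45 and 8.57 in controls and at 8.57, 8.96 and 9.46 in smoke, and its groups met without overlapping, with RW-SS 1 lowest and RW-SS 4 highest. It rose by 0.55 ± 0.08 (1.46-fold, adjusted p = 3.57e-06) and by 0.39 without RW-SS 2 and RW-SS 4 (adjusted p = 0.000119). The catalytic subunit Gclc rose less, by 0.17 ± 0.04 (adjusted p = 0.00314). Sqstm1 (p62), an autophagy receptor that frees NRF2 from its inhibitor, rose by 0.50 ± 0.07 (adjusted p = 5.17e-07, groups not overlapping), and Nqo1, the quinone reductase, by 0.33 ± 0.07 (adjusted p = 0.000877). Aox1, aldehyde oxidase, rose by 0.33 ± 0.06 (adjusted p = 0.000132) and catalase (Cat) by 0.23 ± 0.06 (adjusted p = 0.00251). Mafg, a partner of NRF2, rose by 0.15 ± 0.06 (adjusted p = 0.0444), close to the threshold, and was lost without RW-SS 2 and RW-SS 4 (adjusted p = 0.0581) or RW-SS 7 (adjusted p = 0.128).

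The 3 falls were Ephx1, microsomal epoxide hydrolase (by 0.35 ± 0.06, adjusted p = 2.13e-05, groups not overlapping), and the NADPH-producing enzymes Me1 (by 0.27 ± 0.08, adjusted p = 0.0168) and Pgd (by 0.43 ± 0.13, adjusted p = 0.0137). Both NADPH enzymes lost their call without RW-SS 2 and RW-SS 4, which left 1 fall. Txnrd1 (0.13 ± 0.06, adjusted p = 0.0955) and Srxn1 (0.03 ± 0.05, adjusted p = 0.695), reductases often used as markers of NRF2, did not pass. A dimmer probe set of Srxn1 gave 0.28 (adjusted p = 0.000773). Among 20 glutathione S-transferases tested, which join glutathione to toxicants, 1 rose, Gstm3 (0.32 ± 0.07, adjusted p = 0.000567, groups not overlapping), a dim gene at 5.74 in the control median, and none fell.

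The antioxidant element TGACNNNGC, searched on both strands, was found in 10 of 24 promoters of the list (41.7%), in 17.0% of promoters of the genes tested and in 12.4% of all windows. It was in 2 of the 6 with a promoter that rose and in 2 of the 3 that fell. The promoter of Gclm is shown for its match, in capitals, which runs on the strand opposite to the one printed and begins 134 bases before the start (GRCm38.p6, chr3:122245307-122245556, + strand, from RefSeq).
Gclm: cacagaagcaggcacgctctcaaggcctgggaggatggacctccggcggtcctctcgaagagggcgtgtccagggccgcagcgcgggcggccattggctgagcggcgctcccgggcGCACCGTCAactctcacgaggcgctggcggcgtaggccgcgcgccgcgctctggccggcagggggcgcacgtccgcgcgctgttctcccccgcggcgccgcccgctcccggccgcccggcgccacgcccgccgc

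Genes of the aryl hydrocarbon receptor gave 1 rise and no fall among 6 tested. Cyp1a1, the cytochrome P450 that this receptor raises most, read 5.27, 5.70 and 5.89 in controls and 5.26, 5.55 and 5.85 in smoke. The groups overlapped fully and the difference was -0.14 ± 0.12 (adjusted p = 0.432). Cyp1b1 (0.22 ± 0.15, adjusted p = 0.302), the receptor gene Ahr (-0.18 ± 0.09, adjusted p = 0.127), its repressor Ahrr (-0.07 ± 0.12) and its target Tiparp (-0.06 ± 0.06) did not pass either. A dimmer probe set of Tiparp gave -0.45 (adjusted p = 1.83e-05). The rise was that of Arnt, the partner of the receptor (0.23 ± 0.06, adjusted p = 0.00322).

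NAD metabolism held opposite changes. Nampt, which limits NAD synthesis from nicotinamide, rose from 9.88, 10.09 and 10.23 in controls to 10.38, 10.72 and 11.00 in smoke, without overlap (0.63 ± 0.07, adjusted p = 1.33e-08). Nmnat1, the nuclear enzyme of the next step, fell by 0.46 ± 0.05 from 7.20 to 6.72 (adjusted p = 4.17e-08, groups not overlapping). Sirt3, the main NAD-dependent deacetylase of mitochondria, fell by 0.31 ± 0.07 (adjusted p = 0.000513, groups overlapping). These were the changes among 12 genes tested, 1 rise and 2 falls, with 2 rises without RW-SS 7.

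Mitochondrial ribosomal proteins, which are encoded in the nucleus, form the ribosome that makes the few respiratory chain subunits encoded by mitochondrial DNA. Of 74 tested 39 (52.7%) fell and none rose, 66 of 74 differences were negative, and the median was -0.11 with a range from -0.44 to 0.06. Most members were bright: 59 lay in the brightest class of genes and 14 in the next, where 20.9% and 18.3% of all genes fell and the median changes were -0.02 and -0.03. Averaged over the 74, RW-SS hearts lay between -0.21 and -0.06 and RW-SC hearts between -0.02 and 0.04, without overlap. RW-SS 7 was lowest, and without it 32 members fell, without RW-SS 2 and RW-SS 4 30 fell, and after a further quantile normalization 24 fell, in each case with none rising.

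Mrpl19 of the large subunit had the largest fall of the family. It lay at 8.95, 9.02 and 9.17 in controls and at 8.46, 8.60 and 8.79 in smoke, and the groups did not overlap. The fall was 0.44 ± 0.05 (1.36-fold, adjusted p = 6.36e-09, 7 of 7 hearts). Mrpl45 (by 0.33 ± 0.04, adjusted p = 4.39e-07), Mrpl34 (by 0.33 ± 0.05, adjusted p = 1.44e-06), Mrpl18 (by 0.33 ± 0.04, adjusted p = 1.15e-08) and Mrpl47 (by 0.32 ± 0.04, adjusted p = 1.77e-07) followed, each without overlap. In the small subunit Mrps15 (by 0.19 ± 0.04) and Mrps21 (by 0.18 ± 0.03) fell without overlap, and Mrps6 by 0.26 ± 0.08 with overlap (adjusted p = 0.0226, 0.11 without RW-SS 2 and RW-SS 4). In 16 members every RW-SS heart lay below every RW-SC heart, a share of 21.6% against 3.26% of all genes tested. Mrpl52 and Mrpl16, the most positive members, differed by 0.06 and 0.05 and did not pass, and the mean over the probe sets of Mrpl52 was -0.07.

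**Figure D4:**
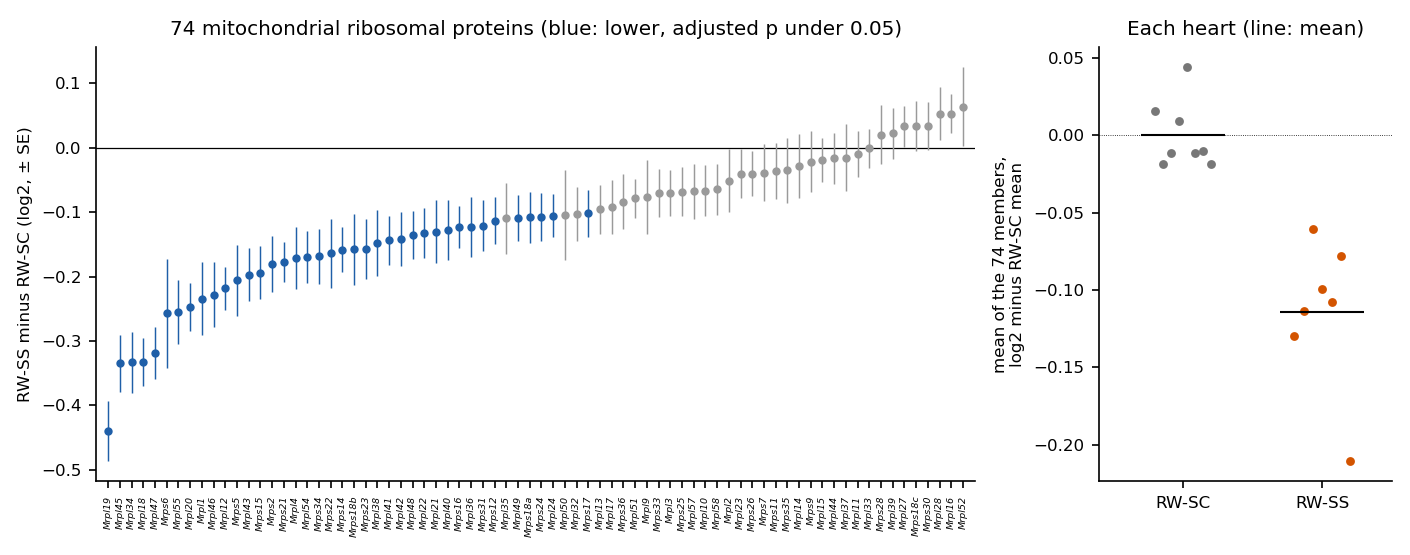
Left, RW-SS minus RW-SC (y axis, log2, bars ± SE) for each of 74 mitochondrial ribosomal proteins in order of change, blue where limma's adjusted p was under 0.05, running from -0.44 for Mrpl19 to 0.06 for Mrpl52. Right, the mean of the 74 in each heart relative to the RW-SC mean (points are hearts, lines group means), where all 7 RW-SS hearts lie at -0.06 or below and all 8 RW-SC hearts at -0.02 or above.

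Promoters of this family were searched for the ETS motif CCGGAAG, bound by the GABP factor that serves many mitochondrial genes, and for the NRF-1 motif, GCGC followed after 1 base by TGCGC, both chosen after values were seen. CCGGAAG stood in 24 of 65 promoters (36.9%), against 19.4% of promoters of the genes tested and 19 of 40 (47.5%) of cytosolic ribosomal proteins. Within the mitochondrial family it stood in 13 of 34 members that fell and 11 of 31 that did not pass. The NRF-1 motif stood in 3 of 34 that fell and in 9 of 31 that did not pass, against 11.3% of the genes tested. Mrpl34 is shown as a member with a clear fall and an ETS motif, in capitals, on the printed strand, beginning 37 bases before the start (GRCm38.p6, chr8:71464676-71464925, + strand, from RefSeq).
Mrpl34: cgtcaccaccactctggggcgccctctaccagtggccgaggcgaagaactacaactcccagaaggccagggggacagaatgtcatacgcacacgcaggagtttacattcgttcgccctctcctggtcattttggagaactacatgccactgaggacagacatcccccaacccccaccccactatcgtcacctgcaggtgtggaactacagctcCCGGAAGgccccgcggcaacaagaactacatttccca

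Other mitochondrial groups moved less. Of 20 subunits of the import machinery tested 7 fell and 1 rose, among them Timm22, the core of the inner membrane carrier translocase (by 0.30 ± 0.04, adjusted p = 3.29e-07, groups not overlapping), and the small chaperone Timm8a1 (by 0.40 ± 0.06, adjusted p = 8.39e-06, groups overlapping). Tomm34, a cytosolic cochaperone, was the rise (0.15 ± 0.04, adjusted p = 0.00707). Mtif2, the initiation factor of mitochondrial translation, fell by 0.24 ± 0.04 (adjusted p = 2.24e-05, groups not overlapping) and was the 1 change among 13 translation factors. Respiratory chain genes mostly did not pass: 4 of 34 complex I genes fell and 1 rose, 4 of 32 genes of complexes II to IV fell and 2 rose, and 2 of 17 ATP synthase genes fell. In complex I the largest fall was that of Ndufb1 (by 0.19 ± 0.05, adjusted p = 0.00168). Among the 4 falls in complexes II to IV were 3 assembly factors of complex II, Sdhaf1, Sdhaf2 and Sdhaf4 (-0.17, -0.16 and -0.17), and the largest rise was that of Cox8c (0.34 ± 0.07, adjusted p = 0.000626), a dim probe set at 7.02 in controls.

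Cytosolic ribosomal proteins gave 12 falls and no rise among 46 tested, with small differences and a median of -0.06. The falls made up 26.1%, against 13.0% of all genes and 20.9% of the brightest class. After a further quantile normalization 8 fell. Rps18 fell by 0.14 ± 0.03 (adjusted p = 0.000878) without overlap. In 2 of the 46 every RW-SS heart lay below every RW-SC heart, as in 3.26% of all genes tested. Of 38 proteasome genes tested 6 rose (15.8%, against 11.7% of all genes) and 3 fell. Without RW-SS 2 and RW-SS 4 3 rose, and without RW-SC 7 and RW-SC 8 also 3. Differences over the 38 ran from -0.155 to 0.212, among them 0.11 for Psmb6 and -0.15 for Psmd10. Tubulins, the subunits of microtubules, fell in 6 of 10 tested (3 of 10 without RW-SS 2 and RW-SS 4). Tuba8, an alpha tubulin of muscle and heart, went from 10.78, 10.85 and 11.07 in controls to 9.92, 10.27 and 10.48 in smoke, without overlap, and fell by 0.63 ± 0.07 (adjusted p = 9.51e-09). Tubb4b (by 0.58 ± 0.07, adjusted p = 3.2e-08) and Tubb6 (by 0.37 ± 0.07, adjusted p = 6.18e-05) also fell without overlap. Fscn1, a bundler of actin filaments, fell by 0.79 ± 0.10 from a median of 8.91 to 8.25 (adjusted p = 2.14e-07, groups not overlapping). The dimmer probe sets tested gave 0.16, -0.04 and -0.18 for Fscn1 and 0.07 and 0.13 for Tubb4b, none past the threshold.

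Collagen and matrix genes gave 9 falls and 2 rises among 28 tested, and 3 falls and 2 rises without RW-SS 2 and RW-SS 4. Without RW-SS 7 there were 11 falls and no rise, and without RW-SC 7 and RW-SC 8 no rise. The mean over the list lay between -0.21 and 0.19 in RW-SC hearts, at -0.32 in RW-SS 2, at -0.41 in RW-SS 4 and between -0.18 and 0.05 in the other 5. Fibroblast markers (11 tested) likewise read -0.28 and -0.41 in RW-SS 2 and RW-SS 4, against -0.18 to 0.11 in controls, and their part in the result was not tested. The fibrillar collagen Col1a1 (-0.18 ± 0.12, adjusted p = 0.28) and Col3a1 (-0.38 ± 0.17, adjusted p = 0.0904) did not pass. Among members of the list that fell, Serpinh1 (HSP47), the collagen chaperone, fell by 0.64 ± 0.13 (adjusted p = 0.000363) and by 0.31 without those 2 hearts (adjusted p = 0.00851), and Plod1, a lysyl hydroxylase of collagen, by 0.36 ± 0.06 (adjusted p = 1.27e-05).

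In the basement membrane 5 of 16 genes tested fell and 1 rose, with 2 falls without RW-SS 2 and RW-SS 4 or after a further quantile normalization. Col4a2 lay at 9.57, 9.77 and 9.98 in controls and at 9.03, 9.30 and 9.47 in smoke, without overlap, and fell by 0.47 ± 0.07 (adjusted p = 8.24e-07). Col4a1, its partner in the type IV collagen trimer, fell by 0.29 ± 0.07 (adjusted p = 0.00279) with overlap. The laminin chain Lama5 was the rise (0.30 ± 0.07, adjusted p = 0.00223).

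Of 26 genes of endoplasmic reticulum stress tested 7 fell and 2 rose. Without RW-SS 2 and RW-SS 4 the falls were 4, and after a further quantile normalization the rises were 4. The falls included Pdia4, a protein disulphide isomerase (by 0.33 ± 0.06, adjusted p = 3.37e-05), Dnajc3, a cochaperone (by 0.31 ± 0.06, adjusted p = 0.000255), Manf, a secreted stress factor (by 0.45 ± 0.11, adjusted p = 0.0016), and Hspa5 (BiP), the main chaperone (by 0.19 ± 0.06, adjusted p = 0.0117). Hspa5 did not pass without RW-SS 2 and RW-SS 4 (adjusted p = 0.128). Herpud1, which aids the removal of misfolded proteins, rose by 0.43 ± 0.07 (adjusted p = 1.94e-05). Of 20 heat shock genes tested 3 fell (1 without RW-SS 2 and RW-SS 4) and 1 rose, Bag3 (0.19 ± 0.05, adjusted p = 0.00366), and the inducible Hspa1b differed by 0.17 ± 0.25 (adjusted p = 0.658).

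Genes of cardiac stretch and hypertrophy gave 4 falls and 1 rise among 17 tested. Nppb, the B-type natriuretic peptide released on stretch, lay at 12.22, 12.50 and 12.81 in controls and at 11.22, 11.65 and 12.04 in smoke, without overlap, and fell by 0.82 ± 0.17 (1.77-fold, adjusted p = 0.000277). Nppa, the atrial peptide, differed by 0.10 ± 0.37 (adjusted p = 0.876), and the fetal myosin Myh7 by -0.02 ± 0.19 (adjusted p = 0.952). Tnfrsf12a, the receptor of the cytokine TWEAK, fell by 0.72 ± 0.12 from a median of 9.49 to 8.71 (adjusted p = 3.01e-05, groups not overlapping). Rcan1, a target and brake of calcineurin, fell by 0.27 ± 0.06 (adjusted p = 0.000695). Acta1, the skeletal actin of fetal and stressed heart, fell by 0.67 ± 0.22 (adjusted p = 0.024), a call lost without RW-SS 2 and RW-SS 4 (adjusted p = 0.156).

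Among 13 potassium channel genes tested 4 fell and 1 rose. Kcne1, the accessory subunit of the slow repolarizing current, lay at 5.37, 5.69 and 6.18 in controls and at 4.41, 4.74 and 5.43 in smoke, and RW-SS 7 alone reached the control range. It fell by 0.83 ± 0.14 (1.77-fold, adjusted p = 3.67e-05). Kcne1 was dim, and its median in smoke lay under 4.90, the cut of the filter on mean level. Kcnq1, the pore with which it pairs, fell by 0.16 ± 0.05 (adjusted p = 0.00981), and Kcnj12, an inward rectifier, by 0.40 ± 0.08 (adjusted p = 0.000188). Kcna5, a fast delayed rectifier, rose by 0.44 ± 0.13 (adjusted p = 0.0126), but not past the threshold without RW-SS 2 and RW-SS 4 (adjusted p = 0.0587). The sodium pump subunit Atp1b1 fell by 0.31 ± 0.04 without overlap (adjusted p = 3.99e-07).

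Calcium handling genes gave 4 falls (19.0%, against 13.0% of all genes) and 1 rise among 21 tested, and 4 falls and 3 rises without RW-SS 7. Asph, whose locus also encodes the calcium release partner junctin, fell by 0.50 ± 0.06 from 10.02 to 9.56 (adjusted p = 1.16e-07, groups not overlapping). The calcium stores Casq1 (by 0.32 ± 0.08, adjusted p = 0.0038) and Casq2 (by 0.16 ± 0.04, adjusted p = 0.00117) fell without overlap, and their anchor Trdn rose by 0.22 ± 0.05 (adjusted p = 0.00108). Of the 6 probe sets of Trdn, which has several splice forms, 2 passed upwards and 3 downwards, so its direction rests on the probe set chosen. In adrenergic signalling 4 of 17 tested fell (23.5%, against 13.0% of all genes) and none rose. The falls were those of Pde3a, a cyclic AMP phosphodiesterase (by 0.40 ± 0.11), the G protein regulators Rgs2 (by 0.35 ± 0.12) and Rgs4 (by 0.23 ± 0.07), and Prkar1a, a regulatory subunit of protein kinase A (by 0.17 ± 0.04). A dimmer probe set of Pde3a rose by 0.19 (adjusted p = 0.0238), and the mean over its probe sets did not pass (-0.05, adjusted p = 0.408), so its direction was not settled.

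Fuel genes changed at single steps rather than as groups. Of 29 fatty acid oxidation genes tested 2 rose and 2 fell, without RW-SS 2 and RW-SS 4 1 rose and 4 fell, and after a further quantile normalization 4 rose and 1 fell. Slc25a20, the carrier that takes acylcarnitines into mitochondria, lay at 10.74, 10.83 and 10.90 in controls and at 11.07, 11.18 and 11.31 in smoke, without overlap, and rose by 0.36 ± 0.04 (adjusted p = 1.41e-08). Cpt1a, the liver form of the enzyme that makes acylcarnitines, fell by 0.34 ± 0.07 (adjusted p = 0.000341), with RW-SS 2 above all controls at 8.26. Plin5, which coats lipid droplets near mitochondria, fell by 0.43 ± 0.07 (adjusted p = 8.95e-06, groups not overlapping), and the uptake proteins Cd36 (0.16 ± 0.03, adjusted p = 0.000301) and Slc27a1 (0.28 ± 0.07, adjusted p = 0.00282) rose. In glucose use 4 of 23 fell (17.4%, against 13.0% of all genes) and 1 rose. The transporter Slc2a1 (GLUT1) rose by 0.34 ± 0.07 (adjusted p = 0.000259), while the glycolytic enzymes Hk1 (by 0.23 ± 0.04, adjusted p = 4.44e-06) and Pfkp (by 0.34 ± 0.06, adjusted p = 2.26e-05) fell, each without overlap. Of 17 genes of branched-chain amino acid breakdown 2 rose (5 after that normalization), Dbt (0.25 ± 0.05, adjusted p = 0.000263) and Aldh6a1 (0.22 ± 0.04, adjusted p = 0.000161), and none fell.

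Targets of FoxO factors and genes of autophagy rose in 8 of 19 tested with no fall, and in 5 with 3 falls without RW-SS 2 and RW-SS 4. The ubiquitin-like Gabarapl1, which builds autophagosomes, rose by 0.36 ± 0.06 from 8.80 to 9.15 (adjusted p = 3.03e-05, groups not overlapping), Foxo3 itself by 0.26 ± 0.06 (adjusted p = 0.00116) and the autophagy kinase Ulk1 by 0.19 ± 0.05 (adjusted p = 0.00297). Of 22 genes of growth arrest 5 rose and 3 fell. The inhibitor of cyclin-dependent kinases Cdkn1b (p27) rose by 0.31 ± 0.06 (adjusted p = 0.000137) and Sesn1, a brake on mTOR, by 0.25 ± 0.05 (adjusted p = 0.000281), both without overlap, while Cdkn1a (p21) differed by -0.05 ± 0.08 (adjusted p = 0.68). Differences over the 22 ran from -0.19 to 1.09. Outside this list the cyclins Ccnd1 (by 0.31 ± 0.08, adjusted p = 0.00499) and Ccnd2 (by 0.25 ± 0.06, adjusted p = 0.000964) fell. Ccnd1 did not pass without RW-SS 2 and RW-SS 4 (adjusted p = 0.0543).

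Immediate early genes, which answer within minutes to signals, gave 5 falls and 2 rises among 24 tested, with 1 rise without RW-SS 7 and none without RW-SS 2 and RW-SS 4. Egr1 fell by 0.73 ± 0.15 from a median of 7.90 to 7.22 (adjusted p = 0.000337, groups not overlapping), and Ier2 (by 0.28 ± 0.06), Klf10 (by 0.43 ± 0.13), Junb (by 0.28 ± 0.09) and Jund (by 0.24 ± 0.06) fell with overlap.

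Genes of blood vessel growth and tone gave 5 falls (20.8%, against 13.0% of all genes) and no rise among 24 tested. The endothelin receptor Ednrb fell by 0.56 ± 0.09 (adjusted p = 1.74e-05), Angpt1, a growth factor that steadies vessels, by 0.56 ± 0.09 (adjusted p = 2.61e-05), and Vegfb by 0.36 ± 0.05 (adjusted p = 3.69e-06). A dimmer probe set of Ednrb gave -0.03 (adjusted p = 0.81). Kdr, the main VEGF receptor, fell by 0.22 ± 0.06 (adjusted p = 0.00508), and Nos3, the endothelial nitric oxide synthase, by 0.19 ± 0.06 (adjusted p = 0.023). Nos3 did not pass without RW-SS 2 and RW-SS 4 (adjusted p = 0.147). Endothelial markers as a whole (11 tested) gave 1 rise, Cldn5 (0.30 ± 0.07), and 1 fall, Kdr, and Vegfa differed by 0.09 ± 0.07.

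Of 19 inflammation genes tested 1 rose and 2 fell, of 18 interferon genes 1 rose and 1 fell, and of 14 antigen presentation genes none changed. RW-SS 7 stood apart in these lists: the interferon mean was 0.998 there against -0.32 to 0.14 in the other RW-SS hearts and -0.27 to 0.77 in controls, and the antigen presentation mean was 1.07 against -0.33 to 0.37 and -0.26 to 0.47. Without RW-SS 7 the interferon genes gave 1 rise and 3 falls and the inflammation genes 2 rises and 3 falls. Without RW-SS 2 and RW-SS 4 they gave 3 rises and no fall, and 1 rise and 1 fall. Lcn2, a neutrophil and acute phase protein, differed by 0.00 ± 0.14 (adjusted p = 0.994). The interferon-induced antiviral protein Rsad2 rose by 0.51 ± 0.13 (adjusted p = 0.00314). Ptgds, prostaglandin D synthase, lay at 12.94, 13.24 and 13.45 in controls and at 12.44, 12.54 and 12.76 in smoke, without overlap, and fell by 0.65 ± 0.10 (adjusted p = 6.53e-06). Among 10 macrophage markers tested Cd68 fell (by 0.45 ± 0.12, adjusted p = 0.00581), and without RW-SS 7, where the mean of these markers was highest among RW-SS hearts, 4 of the 10 fell.

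Some of the genes that fell were lowest in RW-SS 7, the heart with the raised 3′ to 5′ differences. Akap9, a scaffold of protein kinase A, read 5.26 in that heart and 6.71 in the group median, against 7.08 to 7.37 in controls. It fell by 0.74 ± 0.13 (adjusted p = 6.45e-05) and by 0.53 without RW-SS 7 (adjusted p = 8.47e-06). Ddx6, an RNA helicase (-0.75 with and -0.63 without RW-SS 7), the chromatin remodeller Atrx (-0.71 and -0.59), the histone demethylase Kdm5a (-0.59 and -0.50) and the long noncoding RNA Malat1 (-0.53 and -0.46) showed the same order. For each of the 5, the RW-SS and RW-SC hearts did not overlap and no call was lost without that heart. Cacna2d1, a calcium channel subunit, fell by 0.73 ± 0.12, and differed by -0.57 without RW-SS 7 (adjusted p = 3.7e-05). These genes were chosen for naming after their values were seen, apart from Akap9, Ddx6 and Cacna2d1, which were among the 15 largest falls.

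Other leading genes belonged to none of the groups. Rit1, a small GTPase of the RAS family, rose by 0.72 ± 0.08 from 8.72 to 9.46 (adjusted p = 5.11e-09), and Klhdc8a, a kelch-domain protein, fell by 0.85 ± 0.09 from 7.56 to 6.68 (adjusted p = 7.48e-09), both without overlap. Itgb6, an integrin subunit of epithelia, fell by 0.74 ± 0.11 (adjusted p = 1.76e-06), and the splicing factor Srsf3 by 0.59 ± 0.08 (adjusted p = 1.28e-06), both without overlap. Prss29, a serine protease with a dim probe set, rose by 0.70 ± 0.13 from 5.14 to 5.72 (adjusted p = 0.000116).

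The same smoke was also given to DIO mice, and that comparison shares no heart with this one. There 2960 genes (31.8%) passed, 2140 higher (23.0%) and 820 lower (8.82%). Of the 2288 genes called in RW mice, 557 were called in the same direction in DIO mice (24.3% of the RW calls and 18.8% of the DIO calls) and 330 in the opposite one. The interaction, DIO effect minus RW effect, passed for 2641 genes (28.4%), 1700 higher (18.3%) and 941 lower (10.1%), and its median over all genes was 0.06. These balances depended on the scaling: after a further quantile normalization of the arrays the DIO calls were 1076 higher and 1010 lower, and the interaction passed for 1554 genes, 661 higher and 893 lower, while the RW calls were 1122 higher and 1040 lower. As deposited, among genes called in RW mice 1214 (53.1%) passed the interaction. That test holds the same RW difference by which these genes were called, so a share above 28.4% is in part built in. For clock genes the falls were smaller in DIO mice: Nr1d1 fell there by 0.67 ± 0.08 (interaction 0.47 ± 0.11, adjusted p = 0.00212) and Dbp by 0.49 ± 0.08 (interaction 0.54 ± 0.11, adjusted p = 0.000697). For Bhlhe40 the differences of -0.66 ± 0.07 in DIO and -0.77 ± 0.07 in RW mice were not shown to differ (interaction 0.11 ± 0.10, adjusted p = 0.383).

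The glucocorticoid list differed between the diets. Of its 25 genes 4 rose and 5 fell in DIO mice, and 10 passed the interaction downwards and 1 upwards, counts that were the same after quantile normalization. Cebpb fell by 0.26 ± 0.07 in DIO mice against its rise of 0.63 in RW mice (interaction -0.89 ± 0.10, adjusted p = 1.07e-07), and Ddit4 differed by -0.25 ± 0.17 there against 1.09 (interaction -1.34 ± 0.25, adjusted p = 0.000281). The DIO-SC hearts already lay between 0.17 and 0.36 above the RW-SC mean of that list, and the DIO-SS hearts between 0.16 and 0.41. Mitochondrial ribosomal proteins gave 17 rises and 2 falls among 74 in DIO mice, and 35 passed the interaction upwards and 1 downwards. After quantile normalization these became 2 rises and 8 falls in DIO mice and 14 upwards and 2 downwards in the interaction, so the direction of this list in DIO mice was not settled. Cyp1a1 rose by 0.74 ± 0.12 in DIO mice, with an interaction of 0.88 ± 0.17 (adjusted p = 0.000377), and Ahr by 0.53 ± 0.08 (interaction 0.71 ± 0.12, adjusted p = 0.000115). The mean over the 6 genes of the aryl hydrocarbon receptor list was already low in DIO mice in air. Relative to the RW-SC mean it lay between -0.605 and -0.33 in DIO-SC hearts and between -0.24 and 0.14 in DIO-SS hearts. Hspa1b, which did not pass in RW mice, fell by 1.77 ± 0.24 in DIO mice, the largest negative interaction (-1.95 ± 0.35, adjusted p = 0.000179). The mean over the 20 heat shock genes was already raised in DIO mice in air. Relative to the RW-SC mean it lay between 0.22 and 0.67 in DIO-SC hearts and between 0.08 and 0.19 in DIO-SS hearts. Rit1, Nampt, Sqstm1, Kcne1, Ednrb and Ptgds were called in the same direction in both diets, and none of the 6 passed the interaction.

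**Figure D5:**
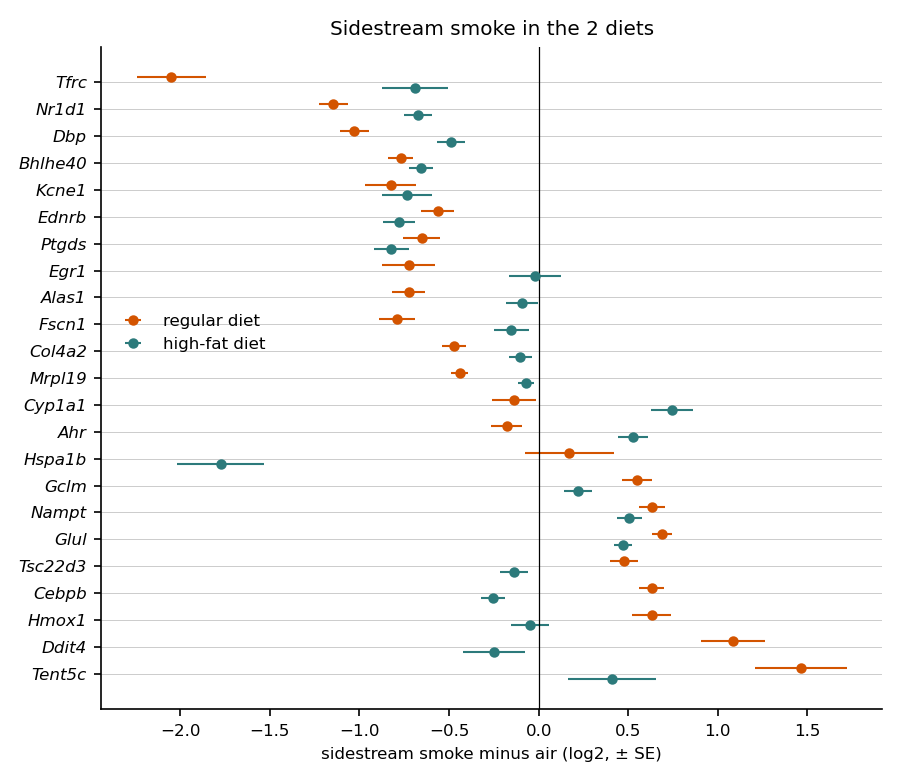
Sidestream smoke minus air (x axis, log2, bars ± SE) for 23 named genes in mice on the regular diet (orange, 7 against 8 hearts) and on the high-fat diet (teal, 8 against 8 hearts). Tfrc, Nr1d1 and Dbp are lower in both, at -2.05, -1.15 and -1.03 on the regular and at -0.69, -0.67 and -0.49 on the high-fat diet, while Cebpb lies at 0.63 and -0.26 and Cyp1a1 at -0.14 and 0.74.

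Sidestream and mainstream smoke were compared directly in RW mice, with 8 RW-MS hearts. Between RW-SS and RW-MS 541 genes (5.82%) passed, 204 higher (2.19%) and 337 lower (3.63%) in sidestream smoke. In a fit of these 2 groups alone 4 genes passed. The largest differences were Sln (2.73), Myl7 (2.48) and other atrial genes, and the atrial marker mean reached down to -3.26 in RW-MS hearts, against -0.35 at the lowest in RW-SS hearts. Dbp lay 0.70 ± 0.08 lower in RW-SS than in RW-MS hearts (adjusted p = 5.24e-07) and Bhlhe40 0.39 ± 0.07 lower (adjusted p = 0.000815), while Nr1d1 differed by -0.24 ± 0.08 (adjusted p = 0.0622) and Tfrc by -0.29 ± 0.19 (adjusted p = 0.378). Cacna2d1 (-0.72 ± 0.12, adjusted p = 0.000545), Akap9 (-0.63 ± 0.13, adjusted p = 0.00372), Ddx6 (-0.58 ± 0.12, adjusted p = 0.00218) and Atrx (-0.52 ± 0.10, adjusted p = 0.00158) were, with Dbp, the largest negative differences past the threshold, the 4 genes lowest in RW-SS 7. Glul lay 0.23 ± 0.05 higher in RW-SS hearts (adjusted p = 0.00706) and Gclm differed by -0.01 ± 0.08 (adjusted p = 0.968). Against the RW-SC hearts, which both comparisons share, 638 genes (6.86%) passed in mainstream smoke, 266 higher (2.86%) and 372 lower (4.0%). There Tfrc differed by -1.76, Nr1d1 by -0.90 and Dbp by -0.33 beside the -2.05, -1.15 and -1.03 in sidestream smoke given above.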

How the data were processed

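Whole-heart RNA (3 µg, biotin-labelled) was hybridised to 1-colour Affymetrix mouse arrays. The deposited values are log2 expression made by the authors with RMA, per the submitters' processing notes, in 1 table of 45 arrays; no version of RMA is stated. The 22690 probe sets held 64 controls. Gene names came from the platform annotation: 20380 probe sets had 1 gene, 691 several and 1606 none listed, and 20351 were matched to RefSeq. The probe set with the highest mean stood for each of 12393 genes. Genes in the lowest 25% by mean (under 4.90) were left out, which left 9295. No value was renormalized. Precision is limited by the number of arrays, and no pair of arrays was identical.

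Groups were taken from the sample titles. limma 3.58.1 (R 4.3.3; lmFit and eBayes, two-sided) gave means of all 6 groups, which shared 1 estimate of the spread (42.6 degrees of freedom), and p-values were adjusted by Benjamini-Hochberg over all genes tested, with a threshold of 0.05. The procedure was tested on simulated data. Descriptions and plots used Python 3.11.15, pandas 2.3.3 and matplotlib 3.10.9. A marker or list mean is the average over members of log2 value minus the RW-SC mean.

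Named genes are the 15 largest rises and falls past the threshold, from each pathway or family list the 6 at most that ranked first by adjusted p, the 5 largest rises and falls of the other tests, genes whose role in a pathway is described, and a set panel. The members and lists were chosen with earlier results of these data known. The lists of heme, tubulin, mitochondrial import and translation factor genes and the ETS and NRF-1 motifs were added after values were seen. Promoters are the 300-base windows of the RefSeq table (GRCm38.p6). The alternatives were other filters, other ways to combine probe sets, other variance models, array weights, a further quantile normalization, replicate blocks and leaving out hearts.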

Additional observations from a re-analysis of the deposited data

Results flagged for a closer look

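All 177 genes named were searched for a heart far from the rest of its group (Dixon's test at the 95% level) and for a difference between the diets that passed its own test.

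A heart stood apart in 34 of 354 groups, where chance flags about 1 in 20. Of the 34, 11 were in RW-SS 7, the heart with the larger 3′ to 5′ differences. RW-SS 7 was the lowest of its group for Akap9 (5.26), Atp1b1 (11.01), Dnajc3 (8.53), Iscu (11.05), Pde3a (5.09), Rps18 (12.36), Sdhaf2 (9.11) and Sdhaf4 (10.40), and the highest for Bag3 (11.65), Myh6 (14.48) and Nos3 (7.68). RW-SS 2 was highest for Cldn5 (7.94) and Rgs2 (9.22) and lowest for Vegfa (7.72), and RW-SS 6 was lowest for the clock genes Nr1d2 (10.76) and Per3 (6.83). RW-SS 3 was lowest for Arnt (5.50) and highest for Mrpl16 (10.55), and RW-SS 4 was lowest for Pfkp (7.70). Among controls, RW-SC 1 was low for Rit1 (8.37) and Nqo1 (7.77) and high for Lcn2 (6.25), Pdia4 (8.46) and Pfkp (8.53). RW-SC 4 was low for Nppa (13.32) and Sln (11.55) and high for Itgb6 (7.33) and Rsad2 (9.38). RW-SC 3 was low for Mrps21 (10.01) and Sirt3 (8.45) and high for Psmb6 (10.75). Single hearts were high for Mrpl52 (RW-SC 2, 10.26) and low for Aldh6a1 (RW-SC 5, 10.48) and Isg20 (RW-SC 8, 6.12).

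The effect of sidestream smoke differed between the diets for 75 of the 177 genes (DIO effect minus RW effect in log2, limma's adjusted p under 0.05). Over all genes tested the share was 28.4%. Many of the 177 were named for their RW difference, which this test holds, or for the test itself. The count and that share are therefore not like for like. After a further quantile normalization 54 of the 75 still passed, 21 did not and none changed sign. The difference was negative for Tent5c (-1.05) and Ube2l6 (-0.80) and for the red cell and heme genes Alas2 (-0.98), Slc25a37 (-0.76), Hmox1 (-0.68) and Bpgm (-0.65). It was negative for the glucocorticoid-responsive genes Ddit4 (-1.34), Cebpb (-0.89), Fkbp5 (-0.68), Tsc22d3 (-0.62), Zbtb16 (-0.58), Sgk1 (-0.45), Errfi1 (-0.42) and Glul (-0.22). Among stress and antioxidant genes it was negative for Hspa1b (-1.95), Gstm3 (-0.51), Cat (-0.34), Gclm (-0.33) and Bag3 (-0.27), and among others for Prss29 (-0.80), Kcna5 (-0.73), Cox8c (-0.68), Mrpl52 (-0.24), Arnt (-0.22), Trdn (-0.18) and Slc25a20 (-0.16).

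The difference was positive for Tfrc (1.36) and Alas1 (0.63), for the clock genes Dbp (0.54), Nr1d1 (0.47), Clock (0.30) and Nr1d2 (0.20), and for Cyp1a1 (0.88), Ahr (0.71), Tiparp (0.36) and Ephx1 (0.21), which respond to or act on foreign compounds. It was positive for the immediate early genes Egr1 (0.71), Klf10 (0.62) and Ier2 (0.31) and for Rgs2 (0.49), an inhibitor of G protein signalling. In mitochondria it was positive for Sirt3 (0.39), Mrpl19 (0.37), Mrpl34 (0.28), Mrpl45 (0.28), Mrpl18 (0.28), Mtif2 (0.27), Mrpl47 (0.26), Sdhaf1 (0.24), Timm22 (0.24), Timm8a1 (0.23), Iscu (0.21), Sdhaf4 (0.18), Sdhaf2 (0.17), Ndufb1 (0.17) and Mrps21 (0.15). Of these, Mrpl34, Sdhaf1, Timm22, Timm8a1, Sdhaf4, Sdhaf2, Ndufb1 and Mrps21 no longer passed after the further quantile normalization. In metabolism it was positive for Pgd (0.53), Plin5 (0.35), Pfkp (0.35), Nmnat1 (0.32), Me1 (0.32) and Hk1 (0.18). In vessels, matrix and cytoskeleton it was positive for Fscn1 (0.64), Col1a1 (0.44), Tuba8 (0.43), Kdr (0.42), Tubb4b (0.42), Col4a2 (0.37) and Vegfb (0.21). The others were Akap9 (0.50), Asph (0.37), Pdia4 (0.37), Psmd10 (0.24), Prkar1a (0.16), Atp1b1 (0.15) and Rps18 (0.11). Outside mitochondria Pgd, Me1, Hk1, Col1a1, Vegfb, Rgs2, Ephx1, Nr1d2, Akap9, Prkar1a, Atp1b1, Rps18 and Arnt no longer passed after that normalization. Of the 75, Hspa1b, Fkbp5, Zbtb16, Mrpl52, Nr1d2, Tiparp, Col1a1, Ahr and Cyp1a1 had not passed in RW mice.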

How the results depend on the processing

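The count of 2288 genes lay between 1951 and 2299 when 1 heart was left out at a time (914 to 1126 higher, 1030 to 1287 lower). With every probe set tested by itself, a table of 15285 features, 3941 passed (1680 higher, 2261 lower), and 4579 in DIO mice, 1156 between the smokes and 4177 for the interaction. Fewer genes rose with a stricter filter (683) and without RW-SS 2 and RW-SS 4 (698). Between the smokes 4 genes passed with only these groups in the fit, and a further quantile normalization left 1554 past the interaction; the cause was not tested. Of 144 named genes past the threshold, 109 stayed past it under all settings run. Of these genes 72 had other tested probe sets. For 50 another passed in the same direction, for 3 in the opposite one, and for 19 no other passed, among them Fscn1, Tubb4b, Clock, Cpox and Ednrb. The direction of Bach1 (-0.12), Trdn (-0.0024) and Mrpl52 (-0.0719) turned with the mean over all probe sets. After that normalization 13 list counts moved by over 1.5 times. Falls went from 39 to 24 among mitochondrial ribosomal proteins, from 5 to 2 in the basement membrane, and from 4 to 2 in glycolysis, respiratory complexes II to IV and heme synthesis. Rises went from 2 to 5 in branched-chain amino acid breakdown, from 3 to 5 in the hypoxia response and from 2 to 4 in fatty acid oxidation and endoplasmic reticulum stress. Of 1593 counts of list members under other settings, 208 moved by over 1.5 times.

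Hearts with the same replicate number share only that number: the correlations of their deviations ran from -0.24 to 0.47 by title and from -0.16 to 0.44 by mouse number. With the title's number as a replicate block 2399 genes passed (1105 higher, 1294 lower), and with the mouse number 1997 (952 and 1045). By title the block gave 2867 genes in DIO mice, 538 between the smokes and 2743 for the interaction, and by mouse number 2723, 361 and 2259.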
